A study of Mus musculus with 6 samples.

Results

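The small nucleolar RNA host genes described here are 10 long non-coding genes: Gas5, Snhg1, Snhg3, Snhg5, Snhg6, Snhg8, Snhg11, Snhg12, Snhg15 and Snhg18. They were found by gene symbol, and all 10 had 1 row each among the 36210 gene rows of the deposited expression table. The table holds 6 libraries of total RNA depleted of ribosomal RNA, which the labels give as astrocytes from the brain of APP/PS1 mice aged 8 months. APP/PS1 mice carry transgenes for mutant amyloid precursor protein and presenilin and form amyloid plaques; the sources used here name neither the promoters nor the age at first injection. All 6 libraries came from APP/PS1 mice, with no wild-type group. The vehicle group (3 libraries) received 0.9% sterile saline and the AVE0991 group (3 libraries) received AVE0991 at 10 mg per kg, both intraperitoneally once a day for 30 days. AVE0991 is a nonpeptide agonist of Mas, a receptor for angiotensin-(1-7). The comparison asks which RNAs differed in level after the agonist. The labels do not say whether each library came from a separate mouse, so the p-values speak of the spread among these libraries, which may be technical.

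Small nucleolar RNAs guide the chemical modification of ribosomal RNA: those of the box C/D class direct ribose methylation and those of the box H/ACA class direct pseudouridylation. Most are cut out of the introns of longer transcripts, called host genes. In protein-coding hosts, many of which encode ribosomal proteins and translation factors, the spliced exons make an mRNA. In non-coding hosts such as the Snhg genes and Gas5, the spliced exons make an RNA without a long reading frame that often begins with a terminal oligopyrimidine tract (a C followed by further C or T letters), as ribosomal protein mRNAs do, and several of these RNAs are removed by nonsense-mediated decay when ribosomes engage them. Gas5 is named for its accumulation in growth-arrested cells, and Snhg11 is known as a brain transcript that is abundant in neurons.

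Annotated start regions are given for the most abundant member (Snhg11) and the members whose libraries separated by group (Gas5 and Snhg15). To show the tract and its absence, they are also given for some members with a pyrimidine run at or around the start (Gas5, Snhg8 and Snhg12). Snhg3, Snhg5 and Snhg18 also held a run and are not printed. Each line is 5′ to 3′ on the gene's strand and holds 40 bases before the annotated start and 20 bases from it, from RefSeq on GRCm38.p6; capitals mark a C-led run of at least 5 C or T letters that begins within 10 bases of the start.
Gas5, second annotated start, chr1:161035126-161035185, plus strand: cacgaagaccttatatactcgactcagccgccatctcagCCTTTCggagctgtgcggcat
Snhg8, chr3:123508317-123508376, minus strand: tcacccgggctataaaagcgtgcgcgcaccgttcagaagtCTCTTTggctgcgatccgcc
Snhg12, chr4:132308638-132308697, plus strand: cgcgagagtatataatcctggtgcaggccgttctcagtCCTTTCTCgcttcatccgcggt
Snhg11, chr2:158375673-158375732, plus strand: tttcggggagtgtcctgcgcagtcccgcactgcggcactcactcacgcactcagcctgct
Snhg15, chr11:6528741-6528800, minus strand: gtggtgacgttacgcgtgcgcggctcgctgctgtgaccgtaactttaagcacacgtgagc

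The RefSeq table held 10 starts for 9 of the members, with 2 for Gas5. A C-led run near the start was present at 6 of the 10 starts and at 30.7% of all 32851 starts in the table. At 2 of the 10, Snhg8 and the second Gas5 start, the start base itself was a C followed by at least 4 C or T letters, against 2.51% of all starts. Snhg11, Snhg15, Snhg1 and the first Gas5 start held no such run. The letters TATAA, searched on the gene's strand after the sequences had been seen, were in the 50 bases before the start of Snhg5, Snhg8 and Snhg12, against 4.93% of all starts. The E-box CACGTG, which reads the same on both strands, was in the 300 bases around 1 of the 10 starts, that of Snhg15, where it lies near the end of the printed line in lower case, and in 7.15% of all starts. The member starts were rich in CpG, with a median of 27 in 300 bases against 7 over all starts. These matches describe letters in a reference of another build than the mm9 that the submitters' processing notes name; which starts were used in these libraries was not tested.

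The libraries held 44583296 to 50066692 estimated counts on gene rows. Markers of several brain cell types were abundant in each of them: the summed level of 10 neuron markers, such as Snap25 and Syt1, was 5591 to 6379 CPM (counts scaled to library size with TMM factors) in vehicle and 5371 to 5800 CPM in AVE0991 libraries, against 5755 to 7110 and 6504 to 8039 CPM for 10 astrocyte markers, such as Aldh1l1 and Aldoc. Of the astrocyte markers 9 of 10 had a log2 fold change above 0, with a median of 0.63, where 50.7% of all genes tested were below 0. Without overlap 6 were higher in AVE0991 libraries, where 14.3% of all genes were, and 0 were called, where 0.864% of all genes were. Their sum was 6504 CPM in AVE0991 replicate 1, within the vehicle range, and 7586 and 8039 CPM in AVE0991 replicates 2 and 3. The part of astrocyte markers in the results on the host genes was not tested. The sums for 8 oligodendrocyte markers were 3704 to 8041 and 5601 to 11950 CPM, and those for 8 microglia markers 400.0 to 449 and 360 to 516 CPM. Sums for 8 endothelial markers were 77.8 to 151 and 48.3 to 149 CPM. AVE0991 replicates 2 and 3 stood apart in 10 cerebellar granule cell markers, such as Gabra6 and Cbln1, at 2248 and 2200 CPM, while AVE0991 replicate 1 stood at 272 CPM and the vehicle libraries at 236 to 294.5 CPM. No marker was at 0 in any library. In bulk RNA, fewer cells of a type and less RNA per cell cannot be told apart.

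Per transcript length, Snhg11 and Gas5 were the most abundant members and Snhg15 and Snhg18 the least. Levels between genes are compared in FPKM, the length-scaled values of the authors. In vehicle libraries the means were 53.9 ± 11.6 FPKM for Snhg11, 39.4 ± 8.13 for Gas5, 14.4 ± 1.97 for Snhg12, 13.4 ± 1.71 for Snhg8, 8.82 ± 0.471 for Snhg6 and 6.09 ± 1.13 for Snhg1 (SD, n = 3). They were 3.27 ± 1.08 FPKM for Snhg3, 3.00 ± 0.295 for Snhg5, 1.56 ± 0.447 for Snhg15 and 1.05 ± 0.329 for Snhg18. The order of the means was the same in AVE0991 libraries, from 41.7 ± 4.82 FPKM for Snhg11 and 22.3 ± 5.78 FPKM for Gas5 to 1.17 ± 0.123 FPKM for Snhg18.

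Several neighbours in that order overlapped and were not separated by these libraries. In vehicle libraries the ranges overlapped between Snhg11 and Gas5, Snhg12 and Snhg8, Snhg3 and Snhg5, and Snhg15 and Snhg18. In AVE0991 libraries Snhg11 and Gas5 did not overlap (38.3 to 47.2 against 17.8 to 28.8 FPKM), nor did Snhg15 and Snhg18 (2.06 to 2.54 against 1.08 to 1.31 FPKM). There the overlapping neighbours were Snhg12 with Snhg8, Snhg8 with Snhg6, Snhg6 with Snhg1, Snhg3 with Snhg5, and Snhg5 with Snhg15. All members were among the more abundant non-coding genes: by mean FPKM they lay between the 78.0th percentile (Snhg18) and the 99.5th percentile (Snhg11) of the 2351 long non-coding genes tested. In counts, the long Snhg11 transcript alone made up 70.5% to 78.3% of the summed CPM of the 10 members in a library.

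**Figure D1:**
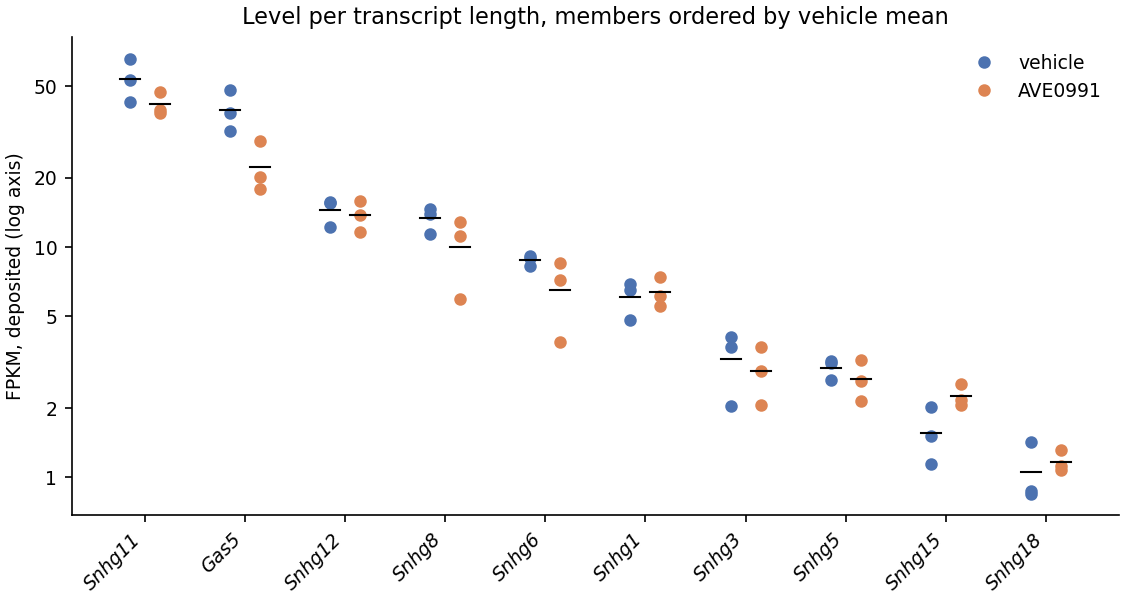
Level of each host gene per transcript length. The vertical axis is FPKM on a log scale, the horizontal axis lists the 10 genes by vehicle mean, points are the 3 libraries of each group and bars the group means; Snhg11 (53.9 and 41.7 FPKM) is highest and Snhg18 (1.05 and 1.17 FPKM) lowest in both groups.

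Of the 10 host genes 0 passed the test of AVE0991 against vehicle libraries across all genes (edgeR quasi-likelihood test with Benjamini-Hochberg adjustment over 20363 genes, adjusted p under 0.05), where 0.864% of all genes tested did, 0.0344% higher and 0.83% lower. All 10 passed the filter on low counts. At an unadjusted p under 0.05 the members were 2 of 10 and all genes 23.6%. The libraries of the groups did not overlap for Gas5, lower in AVE0991, and Snhg15, higher, that is 1 of 10 in each direction, where 16.3% and 14.3% of all genes did the same and 30.6% in either direction. Fitted log2 fold changes (AVE0991 over vehicle) were above 0 for 3 members and below 0 for 7, with a median of -0.10, against -0.01 over all genes, of which 50.7% were below 0, and -0.25 over the long non-coding genes. Among 2351 long non-coding genes alone, 0.595% were called and 26.4% had groups that did not overlap. The number of genes called in all moved with the fit, and 0 of 10 members were called in each. With any 1 library other than AVE0991 replicate 1 left out edgeR called 0 genes, with 3205 to 3818 at an unadjusted p under 0.05; with DESeq2 size factors it called 7 higher and 117 lower, and in 1 fit with the circular RNA rows 1 and 1. Other fits called more: 4.97% of genes were higher and 6.56% lower by DESeq2, 2.2% and 3.54% by limma-voom with quality weights, 6.63% and 4.76% without AVE0991 replicate 1, and 0.114% and 2.08% under a minimum mean of 1 CPM. In counts simulated for the same 20363 genes the test recovered 18% of genes changed by a log2 of 1 and 80% of those changed by a log2 of 2. Those changes were planted only in genes above a minimum count, and the simulation held no GC trend and no outlying library. The shares recovered therefore do not give the recovery in the real libraries.

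**Figure D2:**
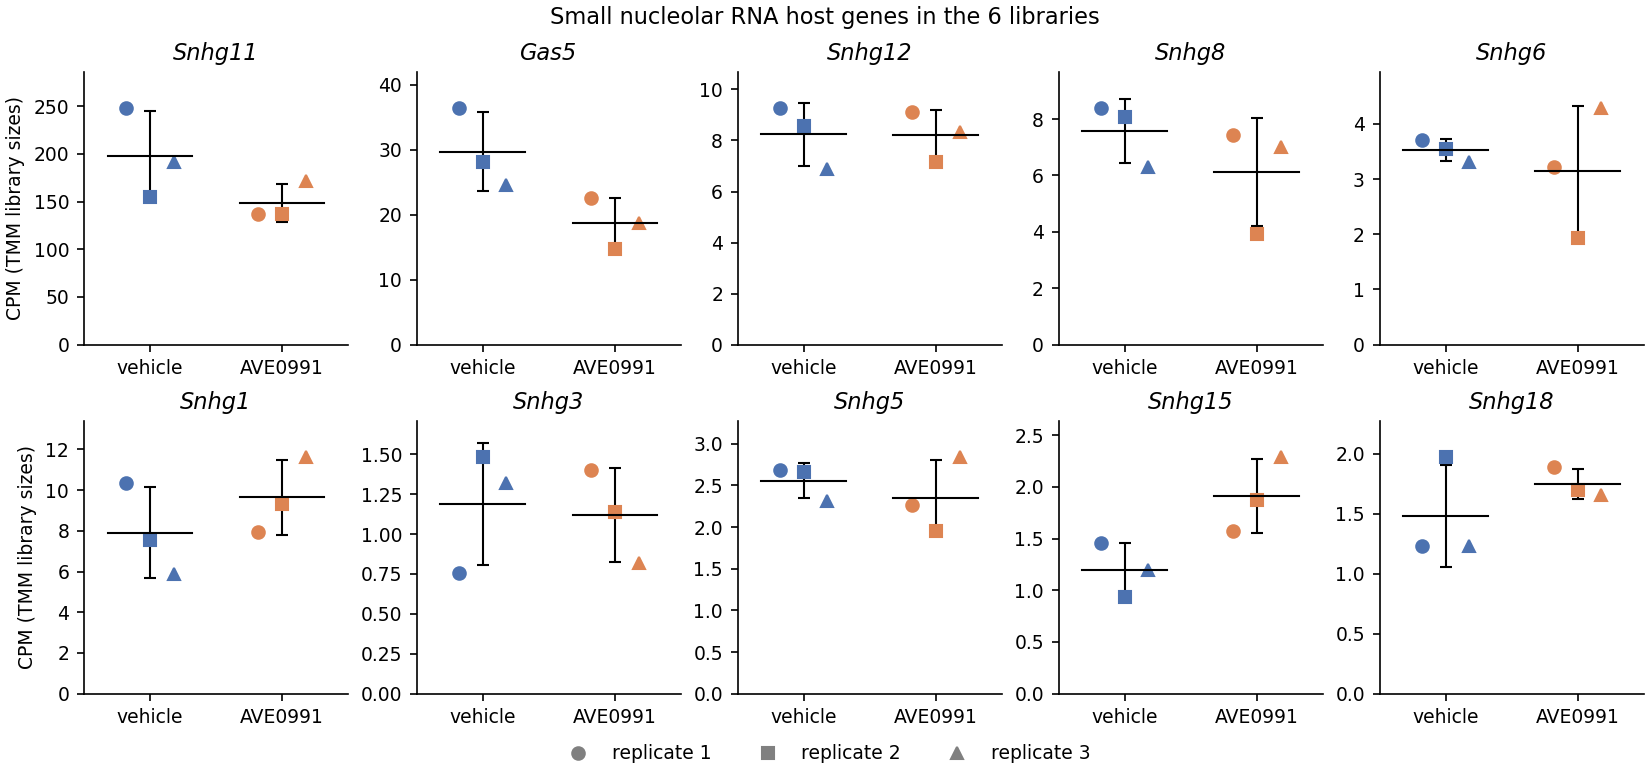
CPM of each host gene in each library. Every panel starts at 0 with its own CPM axis; points are libraries (shape gives the replicate number), the horizontal bar is the mean and the error bar the SD of 3 libraries. The groups are separate for Gas5 (24.6 to 36.4 against 14.7 to 22.6 CPM) and Snhg15 (0.939 to 1.45 against 1.58 to 2.29 CPM) and overlap in the other 8 panels.

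Among hosts of box C/D small nucleolar RNAs, Gas5 showed the most separated values. Gas5, whose RNA can also bind the glucocorticoid receptor, was measured at 36.4, 28.0 and 24.6 CPM in vehicle replicates 1, 2 and 3 and at 22.6, 14.7 and 18.7 CPM in AVE0991 replicates 1, 2 and 3. All AVE0991 libraries lay below all vehicle libraries, although the lowest vehicle library and the highest AVE0991 library were close. The means of 29.7 ± 6.08 and 18.7 ± 3.92 CPM (SD, n = 3 each) differed 1.59-fold, with a log2 fold change of -0.67 (SE 0.20, 95% interval -1.15 to -0.19), and the difference did not pass (edgeR adjusted p = 0.132; unadjusted p = 0.0137). DESeq2 gave -0.65 (adjusted p = 0.0539), and over the 18 alternative settings the adjusted p of Gas5 ran from 0.051 to 0.508. In the authors' deposited table Gas5 stood at a log2 fold change of -0.65 with p = 0.00726 and q = 0.102.

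The Gas5 values moved with other measurements. With AVE0991 replicates 2 and 3 left out together, because of their cerebellar markers, the log2 fold change of Gas5 was -0.39 (SE 0.23, adjusted p = 0.508), on 1 AVE0991 library assumed to vary like the others. After a correction of each library for GC content it was also -0.39 (SE 0.21, adjusted p = 0.426). RefSeq places Gas5 in overlap with Zbtb37, a zinc finger gene at a log2 fold change of -0.47 (SE 0.14, adjusted p = 0.131). The sources used here do not state if counting was by strand, so reads of overlapping genes cannot be told apart. The deposited Gas5 counts were not whole numbers in any library, so its level is an estimate by the authors' counting. The part of cerebellar RNA, GC content or Zbtb37 reads in the difference was not tested.

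Snhg1, host of Snord22 and a series of related box C/D RNAs, was measured at 10.3, 7.53 and 5.88 CPM in vehicle and 7.96, 9.34 and 11.6 CPM in AVE0991 libraries. Vehicle replicate 3 was lowest and AVE0991 replicate 3 highest, with the rest intermixed. The log2 fold change was 0.29 (SE 0.24, 95% interval -0.29 to 0.86, adjusted p = 0.509) and became 0.68 (SE 0.23, adjusted p = 0.267; 0.144 to 0.987 over all settings) after the GC correction. Snhg1 had the lowest GC content of the members, 40.5%, and the median log2 fold change of 942 tested genes within 1 percentage point of it was -0.42; Snhg1 lay at the 95.5th percentile of those genes. Slc3a2, the amino acid transporter heavy chain gene beside Snhg1, was at 104 ± 6.55 and 137 ± 17.8 CPM (adjusted p = 0.134 for a log2 difference of 0.40, SE 0.12).

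Snhg5, the host of the Snord50 RNAs, and Snhg6, the host of Snord87, had nearly equal vehicle libraries and uneven AVE0991 libraries. Snhg5 was measured at 2.69, 2.66 and 2.31 CPM in vehicle and 2.26, 1.96 and 2.84 CPM in AVE0991 libraries. Snhg6 was measured at 3.70, 3.54 and 3.31 CPM in vehicle and 3.21, 1.94 and 4.29 CPM in AVE0991 libraries. For both genes AVE0991 replicate 2 was the lowest and AVE0991 replicate 3 the highest of the 6 libraries, so the groups overlapped at both ends. The log2 fold changes were -0.12 (SE 0.21) for Snhg5 and -0.16 (SE 0.29) for Snhg6 (adjusted p = 0.767 and 0.773). That of Snhg6 changed sign after the GC correction, to 0.17, and without AVE0991 replicate 2, to 0.10. The protein-coding neighbours Syncrip (beside Snhg5, -0.51, adjusted p = 0.0978) and Sgk3 (beside Snhg6, -0.60, adjusted p = 0.0899) did not pass either. Mcmdc2, which overlaps Snhg6, was at 1.11 ± 0.617 and 0.545 ± 0.114 CPM.

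Snhg18, the host of Snord123, was measured at 1.23, 1.98 and 1.24 CPM in vehicle and 1.89, 1.70 and 1.66 CPM in AVE0991 libraries. Vehicle replicate 2 was the highest of the 6 libraries and the other 2 vehicle libraries were the lowest. Its log2 fold change was 0.24 (SE 0.26, 95% interval -0.39 to 0.86, adjusted p = 0.617). It was 0.50 without vehicle replicate 2, still short of the threshold.

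Snhg12 carries RNAs of both classes, Snord99 with Snora16a, Snora44 and Snora61. It was measured at 9.28, 8.55 and 6.87 CPM in vehicle and 9.13, 7.16 and 8.33 CPM in AVE0991 libraries, with the groups fully interleaved. Its log2 fold change of -0.0042 (SE 0.17) had the narrowest 95% interval of the members, -0.40 to 0.39, and the sign of so small a value depended on the setting.

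Among hosts of box H/ACA RNAs, Snhg11 and Snhg8 had their lowest values, and Snhg15 its highest, in AVE0991 libraries. Snhg11 was measured at 248, 155 and 191 CPM in vehicle and 137, 137 and 171 CPM in AVE0991 libraries. Vehicle replicate 1 was far above the rest, AVE0991 replicates 1 and 2 were the lowest, and AVE0991 replicate 3 lay between 2 vehicle libraries, so the groups overlapped. The log2 fold change was -0.42 (SE 0.19, 95% interval -0.87 to 0.03, adjusted p = 0.239), and -0.20 (adjusted p = 0.56, the highest of its settings, which began at 0.22) without vehicle replicate 1. The neuron markers gave no single order beside it: their sum was highest in vehicle replicate 1, at 6379 CPM, while their median there, 488 CPM, was below the 508 to 565 CPM of vehicle replicates 2 and 3 and AVE0991 replicate 1. Their part in the difference was not tested.

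Snhg8, the host of Snora24, was measured at 8.40, 8.08 and 6.29 CPM in vehicle and 7.44, 3.94 and 6.99 CPM in AVE0991 libraries. AVE0991 replicate 2 alone was low, and the other 2 AVE0991 libraries lay within the vehicle range. Its log2 fold change of -0.31 (SE 0.26, adjusted p = 0.508) became -0.07 (SE 0.18, adjusted p = 0.86; 0.298 to 0.975 over all settings) without AVE0991 replicate 2.

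Snhg15, a host of Snora9 known as a short-lived transcript that accumulates under stress, was measured at 1.45, 0.939 and 1.20 CPM in vehicle and 1.58, 1.87 and 2.29 CPM in AVE0991 libraries. All AVE0991 libraries lay above all vehicle libraries, by a small margin between vehicle replicate 1 and AVE0991 replicate 1. These levels rest on 48 to 101 counts per library. The means of 1.20 ± 0.258 and 1.91 ± 0.360 CPM (SD, n = 3 each) differed 1.60-fold, with a log2 fold change of 0.68 (SE 0.27, 95% interval 0.05 to 1.31), and the difference did not pass (edgeR adjusted p = 0.191; unadjusted p = 0.0388). The log2 fold change was 0.49 (adjusted p = 0.447) after the GC correction and 0.41 (adjusted p = 0.672) with AVE0991 replicates 2 and 3 left out; the part of GC content and of cerebellar RNA was not tested. Over all settings its adjusted p ran from 0.0714 to 0.672. In the authors' deposited table the log2 fold change was 0.70 with q = 0.205, and 0 of the 10 members had a q under 0.05, as did 4.40% of its 36060 gene rows.

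Snhg3, the host of Snora73a and Snora73b, had the fewest counts, 34.3 to 75.8 per library. It was measured at 0.757, 1.48 and 1.32 CPM in vehicle and 1.40, 1.14 and 0.818 CPM in AVE0991 libraries, with the groups intermixed. A log2 fold change of -0.09 (SE 0.35) had the widest 95% interval of the members, -0.91 to 0.73. Rcc1, the gene beside it, which encodes the Ran exchange factor, was at 42.1 ± 5.96 and 63.6 ± 15.2 CPM (adjusted p = 0.149 for a log2 difference of 0.59, SE 0.20).

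In the fit without the GC correction, the 95% interval left out a 2-fold change in both directions for 8 of the 10 host genes. The intervals of Gas5 and Snhg15 reached past a 2-fold change on one side, and these were also the 2 members whose interval left out 0. The intervals were not adjusted for the number of genes. Leaving out 0 therefore repeats the unadjusted p under 0.05 of these 2 members, which 23.6% of all genes tested also had. With the GC correction Snhg1 was at 0.68 (SE 0.23), Gas5 at -0.39 (SE 0.21) and Snhg15 at 0.49 (SE 0.28). Intervals were not computed for that correction, so these counts hold for the uncorrected fit only.

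**Figure D3:**
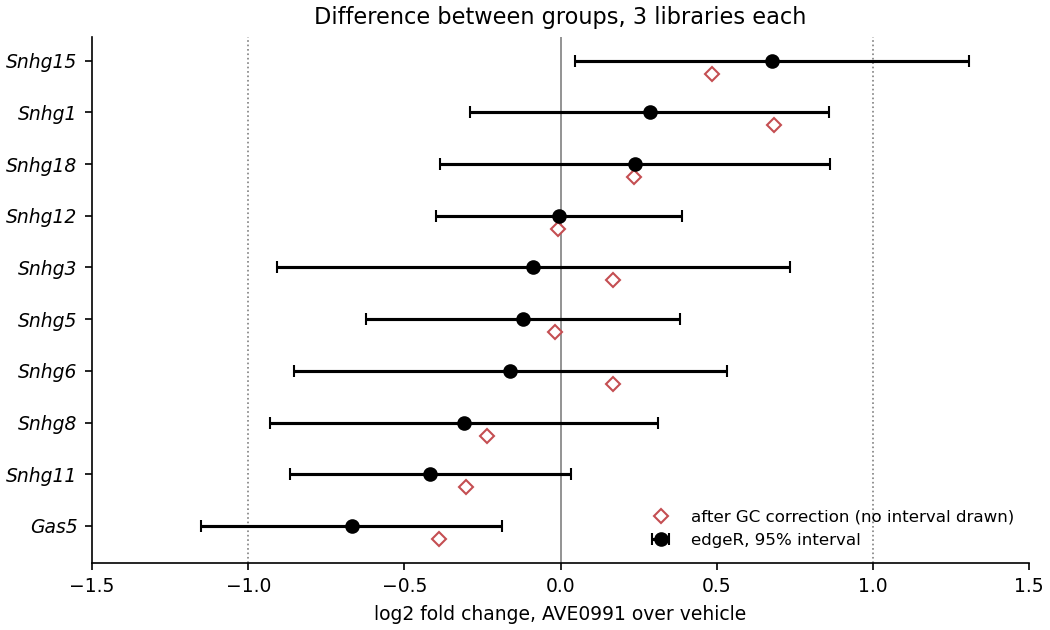
Log2 fold change of each host gene, AVE0991 over vehicle. Black points and bars are the edgeR estimates with 95% intervals, open diamonds the estimates after the GC correction, and dotted lines mark a 2-fold change. The intervals of Gas5 (-1.15 to -0.19) and Snhg15 (0.05 to 1.31) leave out 0, and the diamonds of 7 members lie to the right of their black points. The intervals are not adjusted for the number of genes tested, and neither gene passed after adjustment.

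The members were also read against genes of like GC content, because in these libraries the log2 fold change of a gene moved with the GC content of its longest transcript. The 10 members lay between 40.5% and 53.9% GC. Tested genes within 1 percentage point of Gas5 (42.3%) had a median of -0.30 on the log2 scale, and Gas5 was at their 15.7th percentile. Genes around Snhg15 (53.9%) had a median of 0.17, and Snhg15 was at the 92.9th percentile. Snhg11 was at the 20.1st percentile, Snhg8 at the 26.1st, and Snhg5 and Snhg12 near the middle, at the 48.8th and 50.5th. After the GC correction the median over the members was 0.08 in place of -0.10, and 0 of 10 passed, as did 0.00491% of all genes in the higher and 0 in the lower direction.

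**Figure D4:**
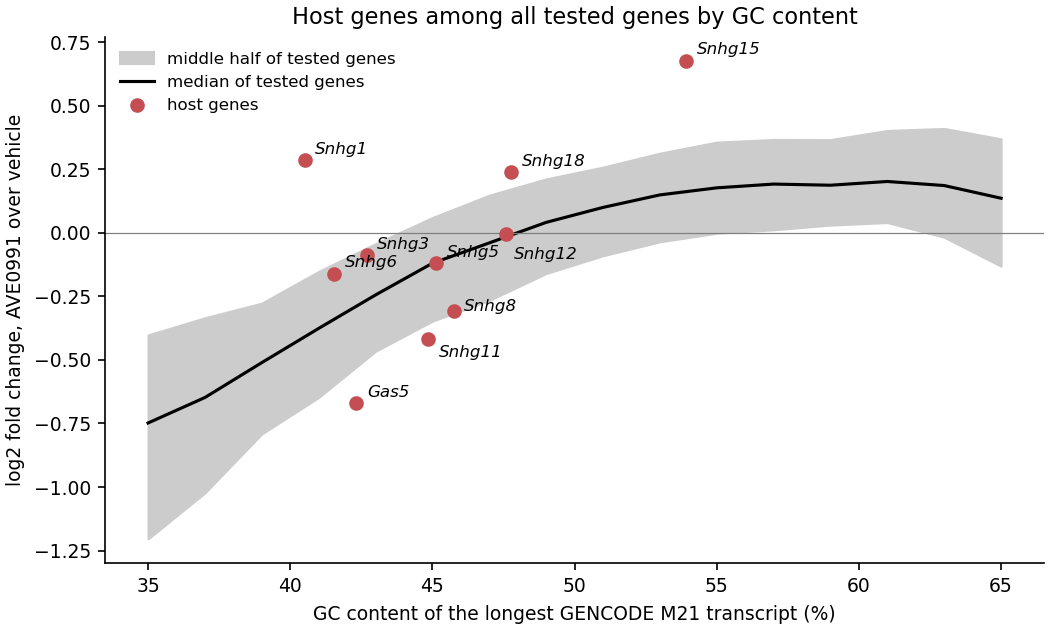
Host genes among all tested genes by GC content. The horizontal axis is the GC content (%) of the longest GENCODE M21 transcript and the vertical axis the log2 fold change, AVE0991 over vehicle; the line is the median and the grey band the middle 50% of tested genes in bins of GC content, and red points are the host genes. Snhg1, Snhg15 and Snhg18 lie above the band and Gas5 and Snhg11 below it.

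One library recurred at the low end. AVE0991 replicate 2 was the lowest of the 6 libraries for 5 of the 10 members, Gas5, Snhg5, Snhg6, Snhg8 and Snhg11, as it was for 23.7% of all genes tested. The median deviation of the members from the vehicle mean of log2 CPM was -0.28 in that library and 0.01 and 0.09 in AVE0991 replicates 1 and 3. The vehicle libraries also differed, at 0.17, 0.04 and -0.18 in replicates 1, 2 and 3, so the spread among vehicle libraries was nearly as wide. Without AVE0991 replicate 2 the median log2 fold change over the members was 0.04 in place of -0.10.

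The protein-coding hosts showed the same library at the low end. AVE0991 replicate 2 was the lowest library for 21 of 29 protein-coding hosts. Among them the 17 ribosomal protein genes, a subset taken after the values were seen, had a median deviation of 0.19, -0.42 and -0.12 in AVE0991 replicates 1, 2 and 3, and 16 of the 17 were lowest in replicate 2. The cause of the low values in this library was not tested.

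**Figure D5:**
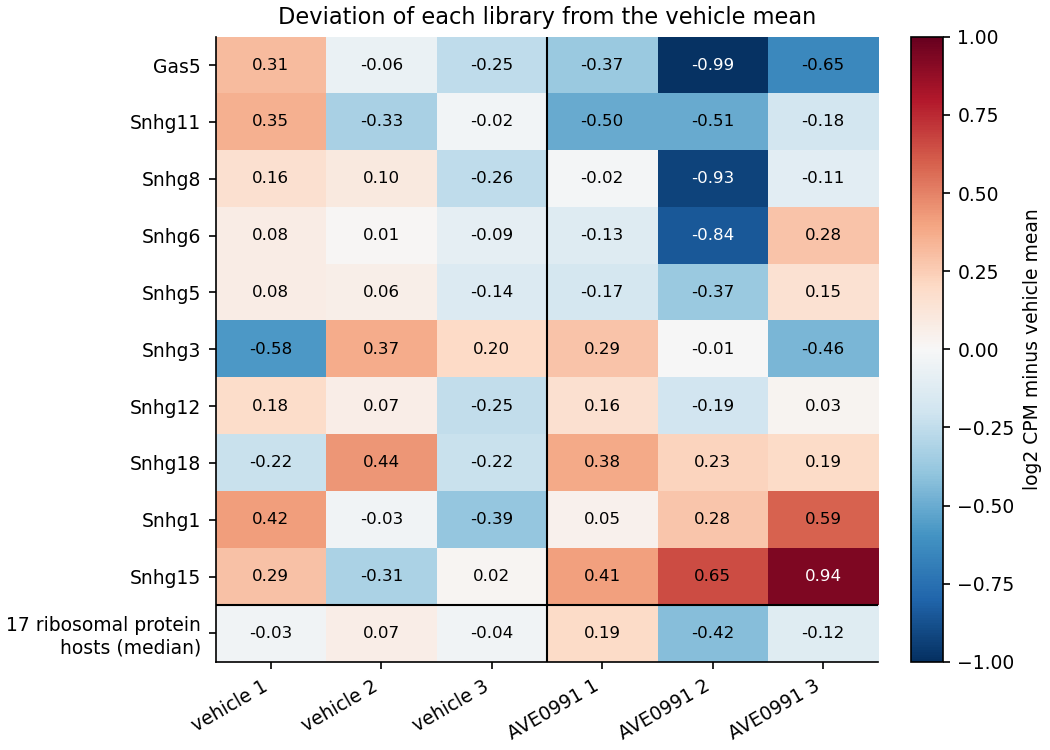
Deviation of each library from the vehicle mean. Rows are the 10 host genes and, last, the median of 17 ribosomal protein host genes; columns are the 6 libraries; colour and printed value give log2 CPM minus the mean of the 3 vehicle libraries. AVE0991 replicate 2 holds the lowest values of Gas5 (-0.99), Snhg8 (-0.93) and Snhg6 (-0.84).

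The members did not move as 1 group across libraries. Over the 45 pairs, Pearson's r of log2 CPM across the 6 libraries ran from -0.84 (Snhg11 with Snhg18) to 0.93 (Snhg5 with Snhg6), with a median of 0.10 and 20 negative values. Snhg5, Snhg6 and Snhg8 followed one another (r = 0.81 to 0.93), and Snhg8 followed Gas5 (0.83). All of these genes were lowest in AVE0991 replicate 2, and the correlations without that library were not computed. Snhg3 ran against Snhg1 (-0.80). Of 10209 genes with a mean of at least 10 CPM, those most like the mean of the members were Pfkl (r = 0.997), Nell2 (0.993), C1ql2 (0.991), Smoc2 (0.986) and Vgll4 (0.982). Those genes were picked as the highest of 10209 values over 6 libraries, and a search of that size finds high values even among unrelated genes. All these correlations describe 6 libraries that share depth and composition between genes.

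The 2 scales gave different values for some members. On log2(FPKM + 0.1) in limma the difference was -0.50 for Snhg6, against a log2 fold change of -0.16 on counts, and 0.07 for Snhg1, against 0.29, and neither passed (adjusted p = 0.336 and 0.846). That of Gas5 was -0.83 (adjusted p = 0.106) against -0.67. The length that the authors' values imply (the estimated count divided by FPKM and by library size) was not constant. It varied by 25.2% across libraries for Snhg1 and by 15.4% for Gas5, against a median of 2.56% over 12350 genes with at least 100 counts and 1 FPKM in every library. For Snhg11 it was 3712 to 3830 bases in vehicle and 3315 to 3594 bases in AVE0991 libraries, with no overlap, which 8.47% of those genes showed in the same direction. Snhg6, with under 100 counts in 1 library, was outside those genes. Its implied length was 402 to 419 bases in vehicle and 446 to 479.5 bases in AVE0991 libraries, also without overlap. The share of genes with a longer implied length in AVE0991 libraries was not counted. The sources used here do not name the isoforms counted.

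The pathway around the host genes was followed in lists of related genes. Of 10 other non-coding hosts tested 1 was called, where 0.864% of all genes and 0.595% of long non-coding genes were. This was Snhg14, lower by edgeR (adjusted p = 0.0141) at -2.95 on the log2 scale. After the GC correction Snhg14 stood at -1.95 (edgeR adjusted p = 0.152). It passed in 9 of the 18 alternative settings and ran from -4.28 to -1.92 over all 18. The list median was 0.01, with 5 above 0 and 5 below. Rian, an imprinted non-coding host (-0.54, but 0.18 after the GC correction), Snhg7 (0.54) and Zfas1 (-0.49) had adjusted p of 0.141, 0.161 and 0.205. Zfas1 was measured at 16.5, 18.6 and 16.2 CPM in vehicle and 15.6, 9.03 and 11.9 CPM in AVE0991 libraries, again lowest in AVE0991 replicate 2.

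Of 29 protein-coding hosts 1 was called, where 0.864% of all genes were, and the median was -0.10, with 8 above 0 and 21 below, where 50.7% of all genes were below 0. Taf1d, a subunit of the RNA polymerase I selectivity factor, fell from 9.69 ± 0.542 to 5.30 ± 0.406 CPM (edgeR adjusted p = 0.0462; log2 fold change of -0.87 with an SE of 0.13). After the GC correction Taf1d stood at -0.45 and did not pass (adjusted p = 0.245). It passed in 5 of the 18 alternative settings, with adjusted p from 5.99e-06 to 0.378, and kept its sign in all of them. Eif4a2, a translation initiation helicase, was at 350 ± 16.0 and 238.5 ± 9.13 CPM (-0.55, adjusted p = 0.0528). Nop58 (-0.46), a core box C/D protein whose own gene is a host, and the elongation factor gene Eef2 (0.33) had adjusted p of 0.104 and 0.17. Eif4a2, Nop58 and Eef2 stood at -0.13, -0.09 and 0.11 with the GC correction (edgeR adjusted p = 0.58, 0.74 and 0.66).

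None of the genes of the machinery passed by edgeR, and their counts at an unadjusted p under 0.05 stand beside a share of 23.6% over all genes. In the list of small nucleolar ribonucleoprotein components and assembly factors 0 of 19 were called and 3 had an unadjusted p under 0.05; the median was -0.06, and Tgs1, which hypermethylates RNA caps, was at -0.49 (adjusted p = 0.0803). Of 18 nonsense-mediated decay factors 0 were called, 5 at an unadjusted p under 0.05, with a median of 0.06; the helicase gene Upf1 was at 0.34 (adjusted p = 0.107) and the exonuclease gene Xrn1 at -0.40 (adjusted p = 0.111). Of 11 coding targets of that decay 0 were called, 2 at an unadjusted p under 0.05, with a median of 0.17. Atf5, a stress transcription factor, was at 0.55 (adjusted p = 0.157). With the GC correction Tgs1 stood at -0.18, Upf1 at 0.11, Xrn1 at -0.09 and Atf5 at 0.32.

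In the remaining lists no gene passed by edgeR either, and the same share of 23.6% over all genes at an unadjusted p under 0.05 stands beside their counts. Of 14 nuclear exosome and trimming genes 0 were called, 3 at an unadjusted p under 0.05, with a median of -0.02; the exosome helicase gene Mtrex was at -0.52 (adjusted p = 0.0509). Of 10 regulators of oligopyrimidine-tract mRNAs 0 were called, 6 at an unadjusted p under 0.05, with a median of 0.10. Eif4ebp2, a translational repressor, was at 0.44 (adjusted p = 0.0996) and the RNA-binding protein genes Tia1 and Tial1 at -0.60 and -0.41 (adjusted p = 0.133 and 0.106). With the GC correction Mtrex stood at -0.35, Eif4ebp2 at 0.28, Tia1 at -0.25 and Tial1 at -0.06. The 2 calls over all the related lists became 12 with DESeq2, 11 without AVE0991 replicate 1, and 0 without any other single library. In the order given, the lists held 10, 29, 19, 18, 11, 14 and 10 tested genes, with some genes shared between lists. Of all genes, DESeq2 called 4.97% higher and 6.56% lower. The fit without AVE0991 replicate 1 called 6.63% and 4.76%, and those without any other single library called 0. Of the 31 small nucleolar RNAs listed as products of the members, 0 had a gene row, so the RNAs that the members host were not analysed here.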

How the data were processed

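The submitters' processing notes name HISAT and the mm9 build, without roles; the sources used here do not state how reads were counted, by strand or not, or on which annotation. The deposited table held, per library, estimated counts of gene rows and length-scaled values taken as FPKM from their ratio to counts. The 11824 circular RNA rows, deposited as counts, entered 1 alternative fit. The authors' deposited comparison gives a log2 fold change with p- and q-values. Estimated counts were rounded and tested in R 4.3.3 with edgeR 4.0.16 (filterByExpr, TMM, robust quasi-likelihood F test, no covariate), adjusted over 20363 genes; called means an adjusted p under 0.05. The SE is the log2 fold change over the square root of F. Alternatives used limma 3.58.1, DESeq2 1.42.0 and a per-library GC curve on GENCODE M21 transcripts (82.8% of tested genes had a value). GRCm38 tables served for names, gene order and start sequences only. The test was checked on simulated counts without a GC trend, where 7 of 105 calls were false. That share does not carry over to the real libraries. 8202 rows had no gene name and held 7.45% to 10.5% of counts; 25 symbols turned into dates were restored. Named genes were all members, per list up to 4 with the smallest p and any called, the first 2 markers per cell type, up to 6 neighbours and the 5 genes most like the members. Members and lists were chosen with earlier results of these data known.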

Additional observations from a re-analysis of the deposited data

How the results depend on the processing

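Over 18 alternative settings (17 planned, 1 added after seeing the data) 0 of 180 member values passed, and 7 members kept their sign throughout. The smallest adjusted p was 0.051 for Gas5, without AVE0991 replicate 1, and 0.0714 for Snhg15, by limma-voom. The log2 fold change of Snhg12 was 0.0093 with DESeq2 size factors in edgeR, 0.0098 by DESeq2, 0.014 without a filter, 0.073 by limma-voom and 0.16 without AVE0991 replicates 2 and 3, and -0.12 to 0.11 with 1 library left out. That of Snhg3 was 0.17 with the GC correction, 0.18 with GC and replicate block, 0.24 without AVE0991 replicates 2 and 3, and -0.30 to 0.11 with 1 library left out. That of Snhg6 was 0.17 with the GC correction, 0.10 with GC and block (-0.23 with the block alone), and -0.45 to 0.10 with 1 library left out. The member median was 0.080 with the GC correction, 0.050 with GC and block, and -0.15 to 0.044 with 1 library left out. Of list genes, Rian was at 0.18 with GC and 0.19 with GC and block, Larp4 at 0.16 with either, and Exosc4 at -0.0016 with both. The 2 calls over the related lists became 1 with DESeq2 size factors and in 1 fit with circular RNAs, 12 by DESeq2 and 7 by limma-voom. They became 4 at a mean of at least 1 CPM and on FPKM plus 0.1 or plus 1. With the GC correction, the block, or both they became 0, and with 1 library left out 0 to 11. Of all genes, DESeq2 called 4.97% higher and 6.56% lower, and limma-voom 2.2% and 3.54%. At a mean of at least 1 CPM 0.114% and 2.08% were called. Correlations of deviations between libraries of the same replicate number were -0.02, 0.09 and -0.35, and those between unlike numbers ran from -0.32 to 0.39. The sources used here do not say what the numbers mark, so these values cannot decide whether libraries were paired. With the block the member median was -0.10 and 0 genes passed in all, where 3937 had an unadjusted p under 0.05. Snhg3, Snhg15 and Snhg18 rest on at most 101 counts per library, which limits their precision.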
